A study of Rattus norvegicus with 8 samples.

Results

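The respiratory chain genes described here were the nuclear genes whose symbols begin with Nduf, Uqcr, Cox4 to Cox8 or Atp5, together with Sdha, Sdhb, Sdhc and Sdhd. Members were chosen by symbol alone, among probe sets that the platform annotation pairs with exactly 1 gene. Each gene was read from its brightest probe set over the 8 arrays. The rule found 86 genes among 14217 named genes. They were 34 structural subunits of complex I, 6 assembly factors of complex I, the 4 subunits of complex II, 7 subunits of complex III, 16 subunits of complex IV, 15 subunits of complex V and 4 further genes, which were a regulator, a supercomplex factor, a paralogue and a pseudogene.

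The comparison was between whole left kidneys of Si deplete rats and those of Si replete rats. All rats were female and of the Sprague-Dawley strain. By the paper's methods both groups ate the same feed, which was low in Si, and differed in their drinking water. That of Si deplete rats was low in Si, and that of Si replete rats had orthosilicic acid added. Diet here means feed and water together. Daily Si intake per kg of body weight was 0.17 mg in Si deplete rats and 4.1 mg in Si replete rats, both for 26 weeks, and all were 29 weeks old. Each of the 4 arrays per diet held RNA of 1 rat, so the rat is the unit of the tests. The standard errors and p-values of limma combine a gene's own spread between these rats with a spread estimated over all probe sets. For a gene with close levels, such as Ndufb10 (SD 0.02 in both groups, standard error 0.064), the standard error is thus wider than its own spread gives. The cage of each rat was not given in the sources used here. All values are log2 levels made by the authors with gcRMA, where a difference of 1 is a doubling, and levels under 4 lie near the floor of the scale.

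The respiratory chain is the set of complexes in the inner mitochondrial membrane that passes electrons from NADH (through complex I) or succinate (through complex II) to coenzyme Q, then through complex III and cytochrome c to oxygen at complex IV, pumping protons on the way. Complex V, the ATP synthase, uses the proton gradient to make ATP. In the kidney this supply drives solute reabsorption, above all in the proximal tubule, whose cells are packed with mitochondria. The subunits encoded by mitochondrial DNA carry other symbols and are not among the members.

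Of the 31042 probe sets tested, 47 passed limma's moderated test at a Benjamini-Hochberg adjusted p under 0.1. Si deplete replicate 1 stood apart on the first principal component (42.1% of the variance), at -64.0, with the other 7 arrays between -19.2 and 25.9. Si deplete arrays had medians of 3.85 to 3.92, against 3.80 to 3.84 for Si replete arrays. The kidney label matched its markers, since all 16 proximal tubule markers had mean levels between 8.02 and 13.0.

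In Si deplete kidneys most respiratory chain transcripts lay slightly below those of Si replete kidneys. Groups were apart for the averages of complex I structural subunits and complex V, and overlapped for those of complexes II, III and IV. The complexes were not tested against each other. The averages of complexes II and V, over 4 and 15 genes, differed alike between groups, by -0.119 and -0.115. The mean was lower in Si deplete kidneys for 77 of the 86 members, against 50.0% of all genes. Their median difference (Si deplete minus Si replete) was -0.11 on the log2 scale, a fold of 0.926, where the median of all genes was 0.00013. Single differences ran from -0.27 to 0.45, with a median standard error of 0.0753, so most were no more than 2 standard errors from 0. Because RNA came from whole kidneys, fewer mitochondria-rich cells and less RNA per cell cannot be told apart.

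No single member passed the test. By limma 0 of 86 had an adjusted p under 0.1, where 0.204% of all genes did, and the smallest adjusted p among members was 0.219. At an unadjusted p under 0.05, limma gave 14 members lower and 0 higher, where 7.95% of all genes were lower and 10.5% higher. Storey's q-value under 0.1 gave 0 members as well. When probe sets whose mean was below 4 were dropped, a step added after the values were seen, it gave 2, Ndufa6 and Ndufa2, at q-values of 0.0988 and 0.0989. In 30 members all 4 Si deplete levels lay below all 4 Si replete levels, which held for 5.49% of all genes. The opposite held for 0 members and for 6.45% of all genes.

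These genes were bright on the array, and bright genes as a whole leaned the same way. Of the 86 members, 69 had a mean level of 10 or more, a limit set after the values were seen. Among the 1812 genes that bright, 59.9% had a lower mean in Si deplete kidneys, 13.1% were lower at an unadjusted p under 0.05 by limma and 12.3% were lower without overlap. The 69 bright members held 66, 11 and 27 such genes. The 1743 bright genes that are not members had a median of -0.04, and the 69 bright members one of -0.12.

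**Figure D1:**
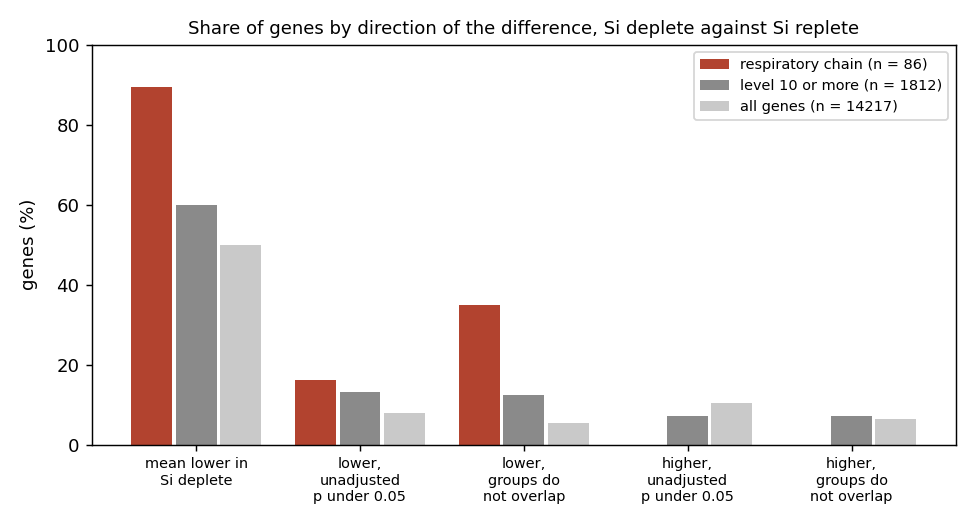
Share of genes (%, from 0) by direction of the difference between Si deplete and Si replete kidneys, for the 86 respiratory chain genes, the 1812 genes with a mean log2 level of 10 or more and all 14217 genes. The respiratory chain bars stand above both others where Si deplete is lower, only a little above the bright genes for the unadjusted p (14 of 86, against 13.1%), and are at 0 in both classes where Si deplete is higher.

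The complexes were described apart, and differences between them were not tested. Complex I structural subunits had a median of -0.13, complex I assembly factors -0.09, complex II -0.13, complex III -0.06, complex IV -0.04 and complex V -0.13. Members were averaged per kidney as deviations from each gene's 8-array mean. For complex I structural subunits these averages were -0.07, -0.01, -0.08 and -0.10 in the 4 Si deplete kidneys, against 0.07, 0.11, 0.02 and 0.06 in the Si replete kidneys. All 4 Si deplete kidneys were thus below all Si replete kidneys. Complex V separated the groups as well, at a mean of -0.06 ± 0.02 in Si deplete and 0.06 ± 0.05 in Si replete kidneys (SD, n = 4 each). In complexes II, III and IV and among the assembly factors the averages of the groups overlapped. These averages rest on unequal numbers of genes, from 4 in complex II to 34 in complex I. That of complex IV includes 6 members with a mean level under 4.

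**Figure D2:**
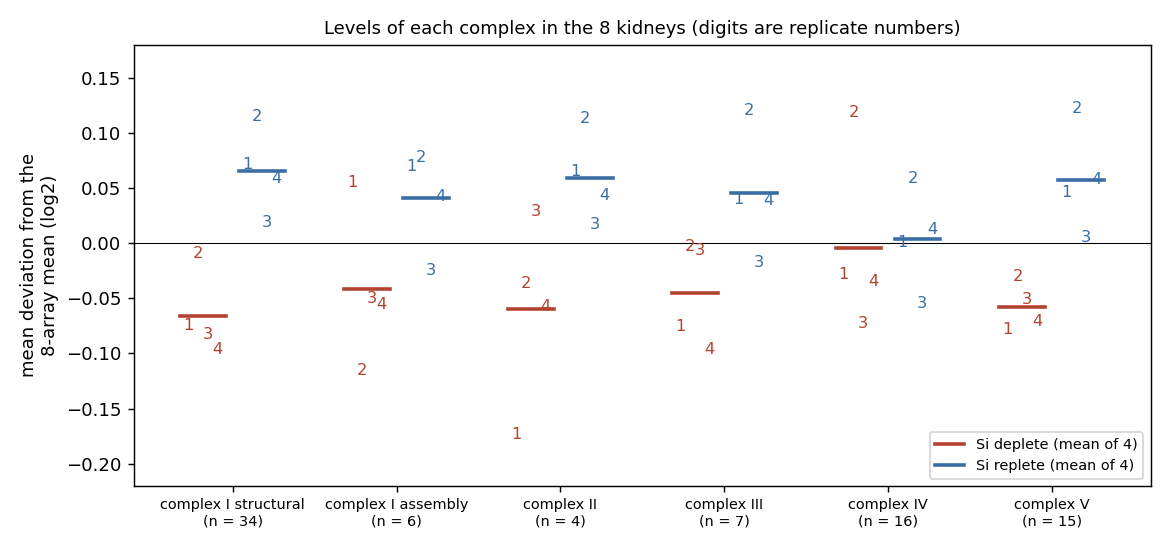
Mean deviation of each complex's members from their 8-array means (y axis, log2), with the 4 Si deplete kidneys left and the 4 Si replete kidneys right in each complex; digits are replicate numbers and bars the mean of 4. The groups do not overlap for complex I structural subunits and complex V, and Si replete replicate 2 is the highest Si replete kidney in every complex.

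Single kidneys took unequal parts in this. Among the 78 members with a mean of 4 or more, the lowest level was in Si deplete replicate 4 for 29, in replicate 1 for 25, in replicate 3 for 16 and in replicate 2 for 7. The highest level was in Si replete replicate 2 for 46. Without Si replete replicate 2 the median over all 86 members was -0.09, and without Si deplete replicate 1, the array that stood apart, it was -0.10. The count at an unadjusted p under 0.05 by limma was 9 without Si deplete replicate 1, and 5 when either replicate 2 or replicate 4 of the Si replete kidneys was left out, in place of 14. The 9 of 86 stand beside 6.34% of all genes and 8.61% of bright genes without that Si deplete kidney. Those 5 of 86 stand beside 5.37% of all genes and 6.68% of bright genes without Si replete replicate 2, and beside 6.44% and 8.50% without Si replete replicate 4, so the members' share was then no higher than that of bright genes.

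Complex I, the NADH dehydrogenase, held the members with the smallest p-values. Of its 34 structural subunits 33 had a lower mean in Si deplete kidneys, 8 were lower at an unadjusted p under 0.05 and 15 were lower without overlap. The shares of all genes were 50.0%, 7.95% and 5.49%. Those of bright genes were 59.9%, 13.1% and 12.3%, and 32 of the 34 subunits were bright. Ndufa2, an accessory subunit of the arm that oxidizes NADH, read 11.71, 11.71, 11.80 and 11.62 in Si deplete kidneys, against 11.98, 12.11, 11.83 and 11.99 in Si replete kidneys. Every Si deplete level was below every Si replete level, by 0.27 on average (standard error 0.083; limma, adjusted p = 0.220). Ndufa6, which holds an acyl carrier protein on the matrix arm, had levels of 11.24, 11.28, 11.32 and 11.27 in Si deplete kidneys, against 11.56, 11.58, 11.39 and 11.55 in Si replete kidneys. The Si deplete levels lay close together, and the nearest Si replete kidney, replicate 3, was well below the other Si replete kidneys (difference -0.24, standard error 0.073; limma, adjusted p = 0.219).

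The 6 core subunits of the flavin and iron-sulfur arm, which carry electrons from NADH towards coenzyme Q, did not all behave alike. Ndufs3, a core protein of the matrix arm, had levels of 11.38, 11.53, 11.60 and 11.51 in Si deplete kidneys, against 11.75, 11.83, 11.68 and 11.73 in Si replete kidneys. The groups did not overlap (difference -0.25, standard error 0.077; limma, adjusted p = 0.223). Ndufv2, which carries an iron-sulfur cluster, did not overlap either, at -0.22. Its partner Ndufv1, which binds NADH and the flavin, averaged 11.76 ± 0.08 in Si deplete and 11.80 ± 0.02 in Si replete kidneys (SD, n = 4 each). That difference of -0.04 was within the spread between kidneys. Ndufs1, Ndufs7 and Ndufs8, which carry the further iron-sulfur clusters, differed by -0.12, -0.07 and -0.06, with overlap. The median of the 6 core subunits was -0.09 and that of the 28 accessory (supernumerary) subunits -0.13. Of these 28, 13 were lower without overlap, beside 5.49% of all and 12.3% of bright genes.

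Among the other accessory subunits, Ndufv3 of the NADH-oxidizing arm read 11.00, 10.92, 10.87 and 10.91 in Si deplete kidneys, against 11.07, 11.14, 11.10 and 11.21 in Si replete kidneys. The groups did not overlap on this probe set (difference -0.20, standard error 0.070; limma, adjusted p = 0.248), but a second, dimmer probe set of Ndufv3 differed by -0.01 only. Ndufa1, a subunit of the membrane arm and the brightest of complex I, averaged 12.86 ± 0.05 in Si deplete and 13.00 ± 0.04 in Si replete kidneys (SD, n = 4 each), also without overlap. Ndufb3 was the only structural subunit of complex I with a higher mean in Si deplete kidneys, by 0.03.

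The 6 assembly factors of complex I, which build the enzyme and leave it, had a median of -0.09, and 5 of the 6 had a lower mean in Si deplete kidneys. Ndufaf3, which works on the quinone-binding module, had levels of 10.09, 10.12, 10.04 and 10.01 in Si deplete kidneys, against 10.21, 10.15, 10.17 and 10.14 in Si replete kidneys. It was the only assembly factor among them without overlap, at -0.10 (standard error 0.067; limma, adjusted p = 0.495). Its binding partner Ndufaf4 differed by -0.10 and Ndufaf7, a methyltransferase, by -0.09, with overlap; without Si deplete replicate 2 they differed by -0.050 and -0.027. Ndufaf1, which helps to build the membrane arm, had the largest difference of the 6, at -0.19. That value rested in part on Si deplete replicate 2, at 7.22 where the other Si deplete kidneys had 7.62 to 7.64, and it was -0.08 without that kidney.

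Complex II, succinate dehydrogenase, is the one complex whose subunits are all nuclear, and all 4 had a lower mean in Si deplete kidneys. Sdhd, a membrane anchor, had levels of 11.99, 12.08, 12.22 and 12.19 in Si deplete kidneys, against 12.29, 12.37, 12.24 and 12.26 in Si replete kidneys. The highest Si deplete kidney came within 0.02 of the lowest Si replete kidney, and the groups did not overlap (difference -0.17, standard error 0.080; limma, adjusted p = 0.358). A second probe set of Sdhd differed by -0.23. Sdha, the flavoprotein that oxidizes succinate, read 11.65, 11.92, 11.91 and 11.93 in Si deplete kidneys, against 12.06, 12.07, 11.98 and 11.96 in Si replete kidneys. It did not overlap either, at -0.16, but was -0.10 without Si deplete replicate 1, the lowest kidney. Sdhb, the iron-sulfur subunit, averaged 12.23 ± 0.09 in Si deplete and 12.33 ± 0.04 in Si replete kidneys, and Sdhc, the other anchor, 11.62 ± 0.07 in Si deplete and 11.66 ± 0.04 in Si replete kidneys (SD, n = 4 each), with overlap in both.

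In complex III, the cytochrome bc1 complex, 7 of 7 members had a lower mean in Si deplete kidneys, but 0 separated the groups and 0 had an unadjusted p under 0.05 by limma. Uqcrc2, a core protein, had levels of 11.58, 11.89, 12.05 and 11.97 in Si deplete kidneys, against 12.10, 12.22, 11.97 and 12.15 in Si replete kidneys. The difference of -0.24 (standard error 0.112; limma, adjusted p = 0.356) was -0.14 without Si deplete replicate 1, which was far below the others. A second probe set of Uqcrc2 differed by -0.27. The other core protein, Uqcrc1, differed by -0.02. Uqcr11, a small subunit, differed by -0.12 and the hinge protein Uqcrh by -0.06. The Rieske iron-sulfur protein Uqcrfs1 differed by -0.12, and by -0.07 without Si deplete replicate 1.

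Complex IV, cytochrome c oxidase, was the most mixed, since 10 of its 16 subunits had a lower mean in Si deplete kidneys. It contains tissue isoforms, known for muscle, lung or testis, beside the common isoforms. The 6 tissue isoforms had mean levels under 4, near the floor, and a median difference of 0.13; the 10 other subunits had a median of -0.09, and 9 of the 10 lay below 0. Setting these apart was a step added after the values were seen. Cox7b, a small common subunit, had levels of 12.76, 12.93, 12.94 and 12.91 in Si deplete kidneys, against 13.01, 13.19, 13.05 and 13.10 in Si replete kidneys. The groups did not overlap (difference -0.20, standard error 0.078; limma, adjusted p = 0.283).

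Ndufa4, first named as a complex I subunit and now placed in complex IV, separated the groups too, at 12.33 ± 0.02 in Si deplete and 12.48 ± 0.08 in Si replete kidneys (SD, n = 4 each). Of the remaining common isoforms, Cox6c and Cox7c were also lower without overlap, by 0.13 and 0.14. Cox4i1, which is part of the enzyme's regulatory site for ATP, differed by -0.02, Cox6a1 and Cox6b1 both by -0.05, and Cox8a by 0.0015, all within their spread. Cox8a averaged 12.85 in both groups, and its sign turned when each array's median was subtracted.

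Among the dim isoforms, Cox6a2 of heart and muscle had levels of 2.73, 2.09, 1.66 and 1.85 in Si deplete kidneys, against 1.71, 1.74, 1.57 and 1.50 in Si replete kidneys. Its difference of 0.45 (standard error 0.205; limma, adjusted p = 0.347), the largest of any member in size, was 0.23 without Si deplete replicate 1. Cox4i2, the isoform known from lung, had levels of 4.01, 4.25, 4.56 and 3.80 in Si deplete kidneys, against 3.66, 3.92, 3.80 and 3.98 in Si replete kidneys. The groups overlapped (difference 0.32, standard error 0.157; limma, adjusted p = 0.381), and without Si deplete replicate 3 the difference was 0.18. Cox7a1, the muscle isoform, differed by -0.22 (limma, unadjusted p = 0.0372, adjusted p = 0.308), with overlap. Cox6b2 and Cox7b2, known from testis, and Cox8b, known from muscle, differed by 0.0040, 0.06 and 0.20. The Cox8b value came from 1 kidney, Si deplete replicate 2 at 4.00, and was -0.16 without it. The sign of Cox6b2 turned with array weights, median subtraction and quantile normalization.

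In complex V all 15 structural subunits had a lower mean in Si deplete kidneys, 4 were lower at an unadjusted p under 0.05 and 8 were lower without overlap. The shares of all genes were 50.0%, 7.95% and 5.49%. Those of bright genes were 59.9%, 13.1% and 12.3%, and 14 of the 15 subunits were bright. The 5 small membrane subunits, which lie at the dimer interface or beside the proton channel, had a median of -0.20, and the 4 subunits of the peripheral stalk, which holds the head still, one of -0.12. The 5 subunits of the catalytic head and central stalk had a median of -0.03, and the c-ring subunit Atp5mc3 differed by -0.02. These medians were not tested against each other, and they overlap in their members: in the central stalk Atp5f1c and Atp5f1e, the gamma and epsilon subunits, differed by -0.14 and -0.13, as did the membrane subunits Atp5mf and Atp5mpl, by -0.14 and -0.12. Atp5mk, a small membrane subunit also known as DAPIT, had levels of 12.28, 12.23, 12.24 and 12.32 in Si deplete kidneys, against 12.46, 12.65, 12.33 and 12.54 in Si replete kidneys. Si deplete kidneys lay within a narrow range and below all Si replete kidneys (difference -0.23, standard error 0.084; limma, adjusted p = 0.269).

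Atp5mg, subunit g, read 12.07, 11.95, 12.07 and 12.09 in Si deplete kidneys, against 12.24, 12.34, 12.15 and 12.29 in Si replete kidneys. The difference was -0.21 (standard error 0.075; limma, adjusted p = 0.257), without overlap. Atp5me, subunit e, was dimmer, at 5.73, 5.75, 5.60 and 5.76 in Si deplete kidneys, against 5.85, 6.01, 5.86 and 5.91 in Si replete kidneys. These groups were also apart, by 0.20 (standard error 0.076; limma, adjusted p = 0.279); a second probe set of Atp5me lay near the floor, and with the mean of both probe sets the difference was -0.02. Atp5po, which joins the peripheral stalk to the head, averaged 12.68 ± 0.05 in Si deplete and 12.84 ± 0.04 in Si replete kidneys (SD, n = 4 each), without overlap, at -0.16; with the mean of its 2 probe sets, the second near the floor, the difference was -0.06. In the head, the catalytic subunit Atp5f1b averaged 12.83 ± 0.07 in Si deplete and 12.85 ± 0.04 in Si replete kidneys (SD, n = 4 each), a difference within that spread. The rotor subunit Atp5f1c was lower without overlap, at -0.14, but at -0.08 without Si deplete replicate 1.

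**Figure D3:**
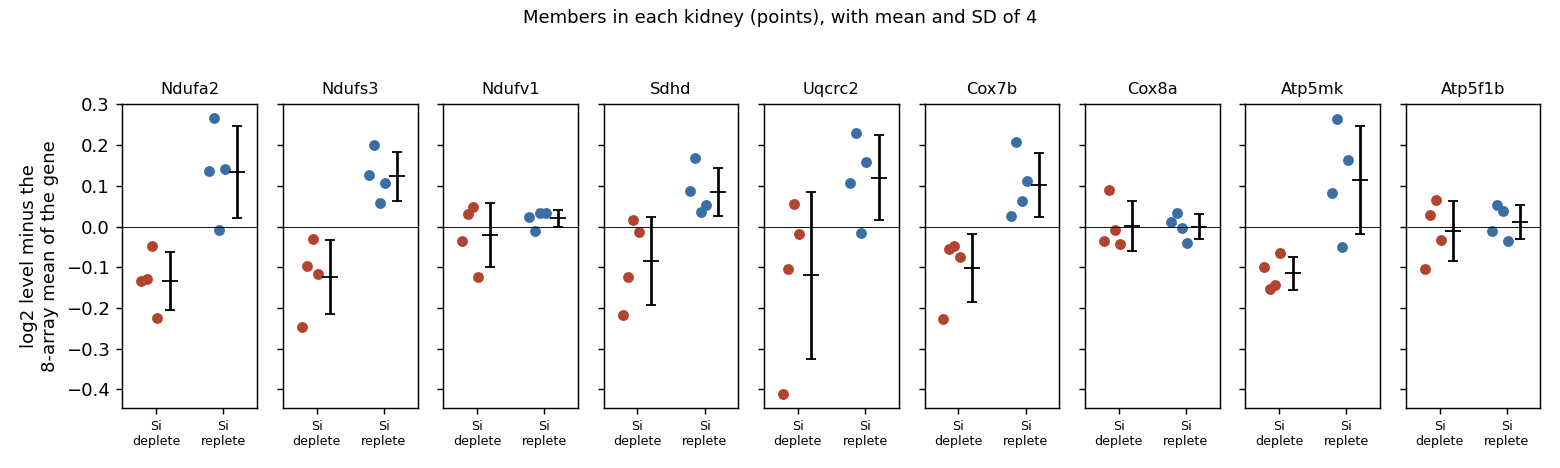
Level of 9 members in each kidney (points, log2 level minus the gene's 8-array mean), Si deplete left and Si replete right in each panel, with the mean and SD of 4 in black. Ndufa2, Ndufs3, Sdhd, Cox7b and Atp5mk show groups that do not overlap, Uqcrc2 has 1 low Si deplete kidney, and Ndufv1, Cox8a and Atp5f1b show groups that overlap around 0.

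The 4 further genes all overlapped between groups. Atp5if1, the inhibitor of the ATP synthase, differed by 0.03 and Cox7a2l, a factor that joins complexes into supercomplexes, by -0.05. Ndufa4l2, a paralogue of Ndufa4 known to be induced in low oxygen, differed by -0.03 and Cox6c-ps1, a pseudogene, by -0.14, both at mean levels under 4. A further 7 probe sets matched the names but carry several symbols and were left out; all 7 lay below 0, at -0.22 to -0.02.

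**Figure D4:**
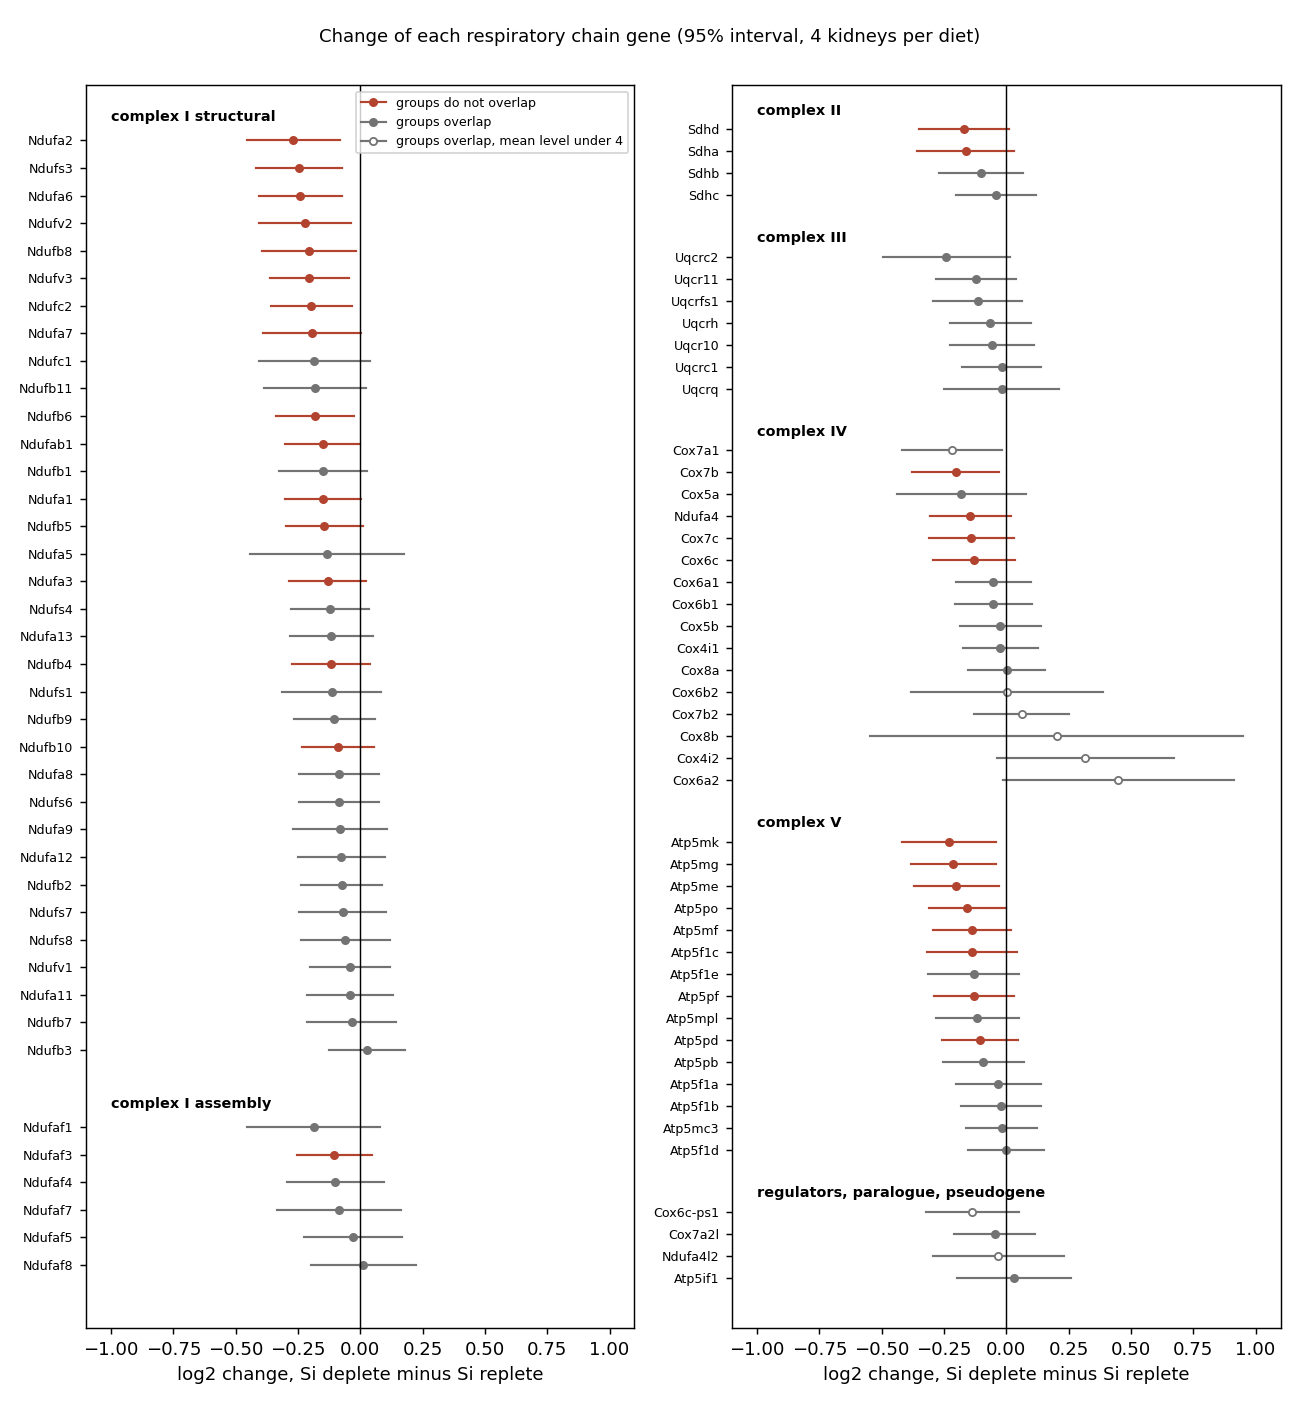
Difference (log2, Si deplete minus Si replete, x axis) of each of the 86 members with its 95% confidence interval from limma, by complex, with 4 kidneys per diet. In red are the 30 members whose groups do not overlap, and open points are the 8 members with a mean level under 4, which include all 6 tissue isoforms of complex IV; most points lie left of 0 and most intervals cross it.

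Promoters of the members were read for short motifs of factors known to act on nuclear genes of the respiratory chain, since the members leaned one way together. RefSeq (GRCr8) gave a window of 250 bases before to 50 bases after the start for 78 of the 86 members. The letters searched, on both strands, were CGCATGCG (the core bound by NRF1), CCGGAAG (bound by ETS factors such as GABPA), TCAAGGTCA (bound by estrogen-related receptors) and AAGATGGCG (bound by YY1); no motif lies within another. At least 1 of them was found in 34 of 78 members (43.6%), in 19.8% of the 11700 windows of genes on the array and in 11.8% of all 33469 windows. By motif, the shares in members and in genes on the array were 10.3% and 3.09% for NRF1, 28.2% and 15.1% for ETS, 14.1% and 3.14% for YY1, and 2.56% and 0.214% for the receptors. Of the members lower without overlap 11 of 28 held one, and of the other members 23 of 50. A match describes letters only.

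Below are the 120 bases just before the start of the 5 members lower without overlap that hold a match there, 5′ to 3′ on the gene's strand, shown so that the matches can be seen in place; capitals mark them.
Sdhd (chr8:59850642-59850761, minus strand): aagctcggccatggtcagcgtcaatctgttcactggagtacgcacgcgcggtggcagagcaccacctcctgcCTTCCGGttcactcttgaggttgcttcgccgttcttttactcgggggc
Atp5mk (chr1:255922048-255922167, minus strand): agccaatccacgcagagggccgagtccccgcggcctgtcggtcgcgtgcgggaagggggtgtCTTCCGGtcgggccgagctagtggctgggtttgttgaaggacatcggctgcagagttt
Atp5me (chr14:1464740-1464859, plus strand): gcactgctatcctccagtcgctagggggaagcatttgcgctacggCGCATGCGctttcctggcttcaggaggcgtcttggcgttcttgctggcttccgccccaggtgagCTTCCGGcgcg
Atp5po (chr11:44657484-44657603, minus strand): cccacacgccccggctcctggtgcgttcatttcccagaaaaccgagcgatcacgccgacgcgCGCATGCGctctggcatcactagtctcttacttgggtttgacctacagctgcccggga
Atp5pf (chr11:37375102-37375221, minus strand): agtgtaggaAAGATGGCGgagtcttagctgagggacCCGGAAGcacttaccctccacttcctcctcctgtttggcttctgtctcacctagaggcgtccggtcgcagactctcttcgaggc
Sdhd, Atp5mk, Atp5me and Atp5pf carry the ETS letters or their reverse complement, Atp5me and Atp5po the NRF1 core, which reads the same on both strands, and Atp5pf the YY1 letters. Atp5pf, known as coupling factor F6, is a subunit of the peripheral stalk and differed by -0.13, without overlap. The transcripts of the factors themselves, named here after their values were seen, did not pass and went both ways. Nrf1 averaged 5.14 ± 0.18 in Si deplete and 4.79 ± 0.20 in Si replete kidneys (SD, n = 4 each), with overlap (limma, unadjusted p = 0.0238, adjusted p = 0.271). Of the estrogen-related receptors Esrrb differed by -0.49 (limma, unadjusted p = 0.0232, adjusted p = 0.269), Esrrg by -0.15 and Esrra by -0.02. Gabpa and Gabpb1, the subunits of the ETS factor, differed by -0.12 and 0.07, and Yy1 by 0.06.

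Genes that work beside the chain were read from lists chosen with earlier results of these data known, and no gene of them named here passed. Of 40 measured assembly factors with other names 29 lay below 0 (median -0.07), with 11 lower and 0 higher at an unadjusted p under 0.05 by limma. Of all genes 50.0% lay below 0, and 7.95% were lower and 10.5% higher at that p. The mean deviations of these assembly factors per kidney overlapped between groups. Sdhaf3, an assembly factor of succinate dehydrogenase, had levels of 8.76, 8.91, 8.91 and 8.90 in Si deplete kidneys, against 9.31, 9.48, 9.13 and 9.36 in Si replete kidneys. Its groups did not overlap, and its difference was -0.45 (standard error 0.091, limma, adjusted p = 0.139). It was named because its adjusted p was the smallest of the 40. Sdhaf1, Sdhaf2 and Sdhaf4, also assembly factors of that enzyme, differed by 0.04, -0.08 and -0.25. Tmem126b, an assembly factor of complex I, differed by -0.39 (limma, adjusted p = 0.181), also without overlap.

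Of 16 genes of electron carriers and coenzyme Q synthesis, 14 lay below 0 (median -0.19), with 4 lower and 0 higher at an unadjusted p under 0.05 by limma. The shares of all genes were 50.0% below 0, 7.95% lower and 10.5% higher. Coq3, a methyltransferase of coenzyme Q synthesis, and Etfa, an electron transfer flavoprotein, both differed by -0.29, without overlap. Of the citrate cycle enzymes 8 of 12 lay below 0 (66.7%, median -0.10), against 59.9% of bright genes, and 11 of the 12 were bright. Dld differed by -0.29 and Sucla2 by -0.20, where Ogdh, Cs and Suclg2 differed by 0.08, 0.07 and 0.07. The mean deviation of this list differed by -0.08 between groups, and by -0.04 without Si deplete replicate 1. Outer membrane and import genes had a median of -0.06 over 14 genes, with Tomm40, the import pore, at 0.23 and Vdac1, the outer membrane channel, at -0.17. Regulators of mitochondrial biogenesis were split, 10 of 19 below 0 (median -0.02), with Polg2, a subunit of the mitochondrial DNA polymerase, at -0.64, Tfb1m, which modifies mitochondrial ribosomal RNA, at -0.33, and Pprc1, a coactivator, at 0.68 (limma, adjusted p = 0.297).

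Ribosomal protein lists were added after the values were seen. Mitochondrial ribosomal proteins, which make the subunits encoded in the organelle, had a median of -0.08 over 73 genes, with 48 below 0, and their mean deviations per kidney overlapped between groups. Cytosolic ribosomal proteins had a median of 0.09 over 55 genes, with 12 below 0 and 7 higher without overlap. Of all genes 50.0% lay below 0 and 6.45% were higher without overlap. The mean deviation of the cytosolic ribosomal proteins was 0.19 in Si deplete replicate 1, and the difference between groups was 0.07 with that kidney and 0.02 without it. Of these 55 genes 37 had a mean level of 10 or more.

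Markers of cell types moved beside these values, and their part in the result was not tested. Of the 16 proximal tubule markers 13 lay below 0 (median -0.15), and their mean deviation per kidney ran from -0.47 to 0.18 in Si deplete kidneys, against -0.12 to 0.32 in Si replete kidneys, with overlap and 0 markers lower without overlap. The -0.47 was Si deplete replicate 1. Without it the proximal tubule mean deviation was 0.08 in Si deplete kidneys, against 0.06 in Si replete kidneys, so the direction of that mean turned. The median and the count below 0 were not taken again without that kidney. Slc5a2 and Slc5a12, which spread widely in Si replete kidneys (SD 1.22 and 1.15), lay above 0 over all kidneys, at 0.70 and 0.19. All 11 genes of kidney injury lay above 0 (median 0.95), with mean deviations of 0.08 to 1.46 in Si deplete kidneys, against -1.05 to -0.19 in Si replete kidneys. Macrophage markers had a median of 0.58 and lymphocyte markers one of 0.75, all 8 and all 5 above 0. Of these, 2 macrophage and 3 lymphocyte markers had mean levels under 4, near the floor. The mean deviations of both lists per kidney overlapped between groups. Red blood cell markers had a median of -0.42 over 3 genes and podocyte markers one of -0.38 over 4. Slc4a1, at -0.26, was counted both among the red blood cell markers and among those of the collecting duct. Collecting duct markers had a median of -0.16 over 8 genes, and those of the thick ascending limb and distal tubule -0.03 over 7. Endothelium had one of -0.01 over 5, and fibroblasts and mural cells one of 0.17 over 9. Of these 9 fibroblast and mural cell markers 7 lay above 0 and 2 below. By limma 4 of them were higher and 0 lower at an unadjusted p under 0.05, and Col1a1 and Col1a2 were higher without overlap. The mean deviation of this list differed by 0.61 between groups, and by 0.72 without Si deplete replicate 1. Per kidney its mean deviations overlapped between groups. Markers of skeletal and heart muscle, a source of the tissue isoforms, lay at mean levels of 2.01 to 2.38 in all 6 cases, near the floor, and the 5 brown fat markers had a median of 0.05, with Ucp1, their defining gene, and Plin1 near the floor (1.91 and 2.34) and Cidea, Adipoq and Fabp4 above it (5.13, 5.24 and 8.23).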

How the data were processed

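RNA of whole left kidneys from 4 Si deplete and 4 Si replete rats was hybridized to 1 Affymetrix rat genome array each. The values deposited by the authors are log2 probe set levels from gcRMA (version 2.36.0 in the submitters' notes), which corrects background, normalizes across arrays and summarizes probes, here by m-estimators. These steps were taken as they stand.

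Of 31099 probe sets, 57 controls were left out and 31042 fitted with R 4.3.3 and limma 3.58.1 (lmFit, eBayes), with Si replete subtracted from Si deplete, Benjamini-Hochberg adjusted p-values over all of them and a threshold of 0.1, as the paper's methods set for q. No level filter was used. Single values had an exact 2-sided permutation test over 70 arrangements, whose smallest p is 0.0286; every member without overlap has that p. The fit was tested on simulated data. The 4 arrays per diet limit the precision.

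Members and lists were chosen with earlier results of these data known. All 86 members were matched to RefSeq genes (GRCr8) by Entrez ID, with 0 symbols changed. Named members followed a rule (34 genes): all Sdh genes; per class the 4 with the smallest p, the brightest and the one with the largest difference; the tissue isoform pairs; and up to 2 genes per list. Others complete a subgroup or were chosen after their values were seen. The alternatives tried were array weights, a robust prior, a prior with an intensity trend, dropping probe sets of mean below 4, median subtraction, quantile normalization, dropping each array in turn, the replicate number as a block, averaging the probe sets of a gene and Storey's q-value (lambda 0.5). Replicate numbers were not used as pairs. In the paper's methods a rat of each group was killed and processed on the same day. The day of each rat was not given in the sources used here, so whether replicate numbers follow it is not known, and day was not modelled.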

Additional observations from a re-analysis of the deposited data

Results flagged for a closer look

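In 6 of the 82 groups of 4 kidneys tested (the named members and the means of the complexes, in each diet), 1 kidney lay far from the other 3 by Dixon's criterion, where chance alone flags about 1 in 20 groups. In Si deplete kidneys, replicate 1 was the low one for Sdha (11.65), Uqcrfs1 (11.95) and Cox7b (12.76), and replicate 2 for Ndufaf1 (7.22) and Atp5mg (11.95). In Si replete kidneys, replicate 3 was the low one for Ndufa6 (11.39). Sdha, Cox7b, Atp5mg and Ndufa6 did not overlap between diets. For Sdha, Cox7b and Atp5mg the low Si deplete kidney could not bring overlap and only widened the difference.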

How the results depend on the processing

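No member passed limma's adjusted p under 0.1 in any of the alternatives run, where the smallest adjusted p of a member ran from 0.168 to 0.430; Storey's q-value after dropping probe sets whose mean was below 4 gave 2 members. The median over members lay between -0.17 and -0.07 in all alternatives, with 69 to 82 members below 0. Subtracting each array's median moved the median of all genes to -0.06; relative to that, complex I structural subunits at -0.18, complex III at -0.12 and complex V at -0.19 lay about as far below as before, while 37 members were lower at an unadjusted p under 0.05, beside 12.8% of all and 21.9% of bright genes, and 47 were lower without overlap, beside 9.01% and 20.0%. Quantile normalization gave a members' median of -0.07, with bright genes at -0.02, and 21 members lower without overlap, of which 20 were among the 30. Beside those 21 stood 4.97% of all and 8.22% of bright genes. An intensity trend gave 24 members lower and 1 higher at an unadjusted p under 0.05, where 8.25% of all and 17.7% of bright genes were lower. With the replicate block 9 were lower and 1 was higher, where 7.42% of all and 11.1% of bright genes were lower. Correlations between same-numbered kidneys were 0.09, 0.09, 0.08 and -0.09, so the numbers were not taken as pairs. The block changed no member's call at the adjusted threshold. Leaving out 1 kidney at a time gave 5 to 14 members lower and 0 to 2 higher at an unadjusted p under 0.05, and 0 to 1 higher without overlap (the 1 without Si deplete replicate 3 or 4). The shares lower at that p were then 5.37% to 9.14% of all genes and 6.68% to 15.3% of bright genes. The count lower without overlap, 30 to 42, can only stay or grow when a kidney is left out, and the share of all genes grew to between 6.74% and 8.93%. Medians ran from -0.14 to -0.11 for complex I structural subunits, -0.11 to -0.046 for assembly factors (-0.046 without Si deplete replicate 2), -0.16 to -0.083 for complex II (-0.083 without Si deplete replicate 1), -0.086 to -0.035 for complex III (-0.035 without Si replete replicate 2), -0.071 to -0.033 for complex IV (-0.071 without Si deplete replicate 2) and -0.14 to -0.092 for complex V (-0.092 without Si replete replicate 2). Signs turned for genes close to 0 or near the floor: Cox6b2 with array weights (-0.018), median subtraction (-0.053), quantile normalization (-0.022) and single kidneys left out (-0.10 to 0.15); Cox8a with median subtraction (-0.056) and single kidneys left out (-0.029 to 0.016); Sdhc with quantile normalization (0.0051); Cox8b (-0.16 to 0.42) and Ndufa4l2 (-0.10 to 0.044) with single kidneys left out. The cause of these shifts was not tested. Members near the floor have little signal over background.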
